A study of Mus musculus with 5 samples.

Results

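The late stage of a mouse model of colitis-associated colon cancer was set against the time before colitis was induced. The late libraries were W8 and W11, named for their week, and the early libraries were W0 and W2. These are 4 of the 5 RNA sequencing libraries of the series, and W5 was left out of the comparison and is given beside it. Mice labelled W8 and W11 had received both azoxymethane (AOM) and dextran sulfate sodium (DSS). Mice labelled W2 had received AOM alone, and mice labelled W0 were described as taken before any agent. AOM was injected into the peritoneum at 8.5 mg per kg on day 1 and day 8, and DSS was given at 1.5% in the drinking water for 7 days followed by 14 days of plain water, in repeated cycles. All mice were male C57BL/6 wild types aged 8 to 12 weeks. The W0 mice were also described as killed together with the treated ones, so whether the early and late mice differed in age by the length of the treatment cannot be told from the labels. From each group 3 mice were selected, and the labels do not state whether their RNA was pooled. Week, cycles of DSS and time since AOM all differ between the late and early libraries and cannot be told apart.

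AOM is a mutagen that is activated in the liver and colon, and DSS injures the colonic epithelium and provokes inflammation. Tumours of this model commonly carry activating changes of beta-catenin, the protein through which Wnt signals reach the nucleus, where it works with TCF and LEF factors. The normal colon surface is lined by absorptive colonocytes, which take up water, sodium and chloride, and by goblet cells, which make mucus, while stem cells at the crypt base respond to Wnt.

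Each time point has 1 library, so there is no replicate error and no test across conditions was run. Read counts were scaled to CPM, the count per 1000000 counted reads, and the 14720 genes whose CPM averaged 1 or more over the 5 libraries were compared. A gene was called higher only when both late values lay above both early values, and lower when both lay below. It was said to rise or fall when the gap was also at least 2-fold, the gap being the difference in log2(CPM + 1) between the late and the early library nearest to each other. This scale understates the change of low genes. Intervals given are exact conditional 95% intervals of the ratio in that nearest pair and cover counting error only. The libraries held between 13389184 counted reads (W8) and 20379429 (W5), with 20111 to 21245 genes detected. Mitochondrial genes took 1.86% of the reads at W8 and 2.83% at W11, against 2.19% at W0 and 4.87% at W2. The labels name intestinal epithelial cells as the cell type, yet the smooth muscle gene Acta2 had 685 and 705 CPM at W8 and W11, against 1014 and 1273 CPM at W0 and W2, so the libraries were not of epithelium alone.

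Of the 14720 genes, 3632 (24.7%) were higher in both late libraries and 2952 (20.1%) were lower, while 8136 (55.3%) overlapped. A gap of at least 2-fold was found upward in 531 genes (3.61%) and downward in 205 (1.39%). The rises were also the larger changes. The median gap was 1.67 among the rises and -1.28 among the falls, and 187 rises but 17 falls had a gap of at least 4-fold. A gap of at least 16-fold was found in 48 rises and in 0 falls. The counting interval of the nearest pair excluded a ratio of 1 in all 531 rises and 205 falls, and in 2092 of the 3632 higher genes and 1501 of the 2952 lower genes. For the rises and falls this adds no separate support, because the interval comes from the same pair of counts that set the gap. The difference in mean log2(CPM + 1) had a median of 0.00 over all genes tested.

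**Figure D1:**
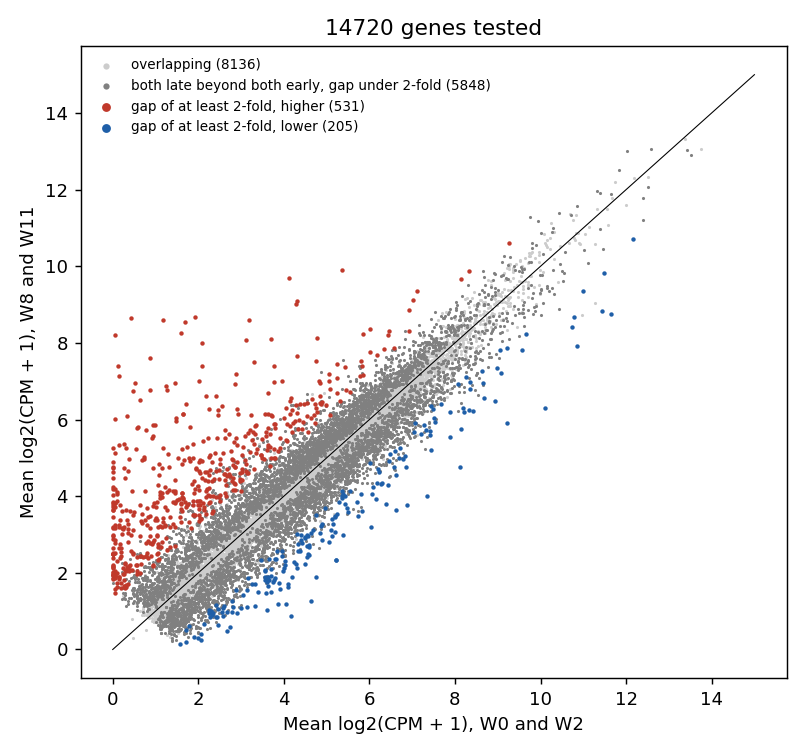
Each point is a gene, with the late libraries (W8 and W11) plotted against the early ones (W0 and W2) on a log2(CPM + 1) scale and the 531 rises and 205 falls coloured. The rises reach farther from the diagonal than the falls.

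The genes with the widest upward gaps were a matrix protease, a secreted Wnt inhibitor, antimicrobial and acute-phase proteins, neutrophil alarmins and zinc-handling genes. Mmp7, which encodes the protease matrilysin, had 556 CPM at W8 and 293 CPM at W11, against 0.0726 CPM at W0 and 0.683 CPM at W2. The widest downward gap was in Car3, a carbonic anhydrase of fat and muscle. Other wide falls included the carbonic anhydrase Car4, a water channel, a chloride exchanger and drug-metabolising enzymes of the surface colonocyte. Aqp8, the colonocyte water channel, had 37.8 and 17.7 CPM at W8 and W11, against 254 and 297 CPM at W0 and W2. Late and early values were far apart in both genes, and W5 lay between them at 128 CPM for Mmp7 and 147 CPM for Aqp8.

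**Figure D2:**
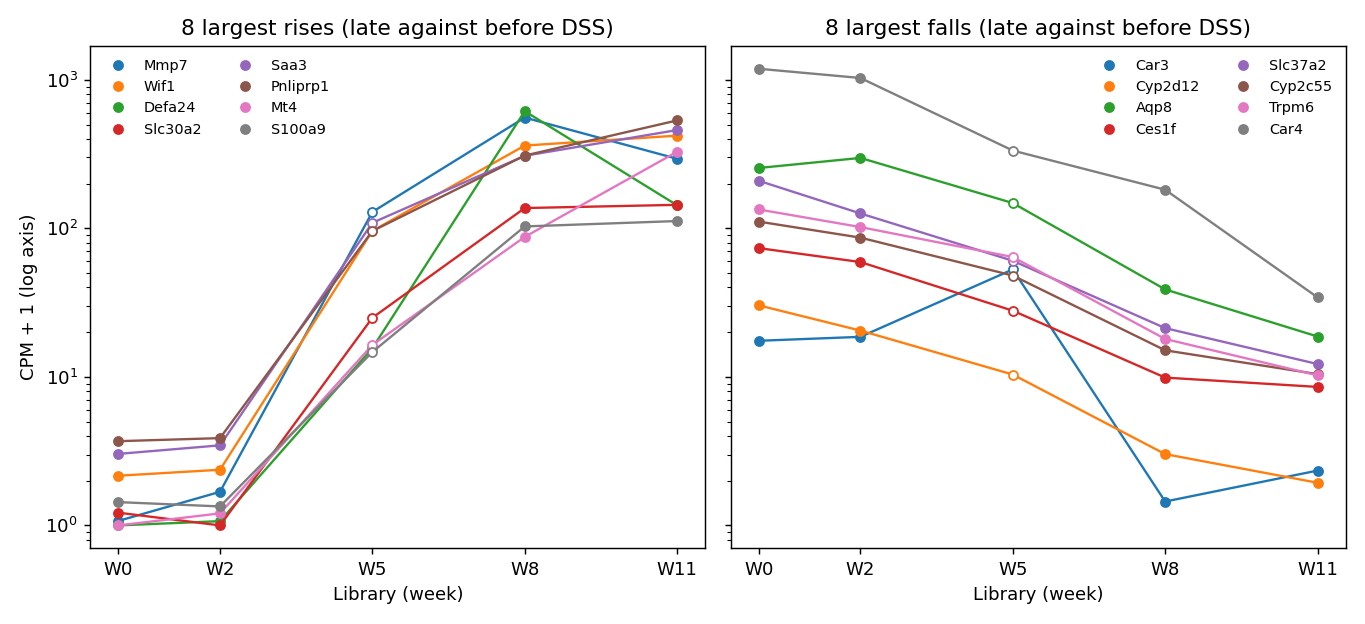
CPM + 1 on a log axis in every library for the 8 genes with the widest gap in each direction (left, rises; right, falls), with 1 line per gene and W5 as an open point. In each gene both late values lie beyond both early values, and Car3 is the gene whose W5 value, 51.9 CPM, lies above all its others.

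Secreted and intracellular inhibitors of the Wnt pathway, many of them transcribed in response to Wnt itself, divided into 6 that rose and 11 that did not. Of the 17 tested, 9 were higher, 2 were lower (Sfrp4 and Sfrp5) and 6 overlapped, with a median difference of 1.01 on the log2 scale. Wif1, a secreted protein that binds Wnt ligands, had 360 and 420 CPM at W8 and W11, against 1.16 and 1.37 CPM at W0 and W2, a 263-fold ratio in the nearest pair (170 to 431). Its late values were close to each other, and W5 lay between the groups at 95.1 CPM. Nkd1, an intracellular inhibitor that acts on Dishevelled, had 499 and 532 CPM at W8 and W11, against 19.2 and 18.0 CPM at W0 and W2 (26.1-fold, 23.0 to 29.6). Notum, an enzyme that removes the lipid from Wnt ligands, had 41.6 and 32.8 CPM in the late libraries and no reads in either early one, which makes it at least 151-fold higher against the floor of 3 counts per library. Dkk2, a secreted antagonist of the Wnt co-receptor, had 42.6 and 62.8 CPM against 0.798 and 0.615 CPM. Apcdd1, a membrane inhibitor of Wnt, had 129 and 219 CPM at W8 and W11, against 2.32 and 4.51 CPM at W0 and W2. Axin2, a scaffold of the complex that degrades beta-catenin, moved less, with 129 and 82.4 CPM against 34.3 and 40.1 CPM (gap 1.02). The summed CPM of the list was 1896 at W8 and 1705 at W11, against 419 at W0 and 365 at W2.

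Wnt target and stem cell genes moved unevenly. Of 20 tested, 10 were higher, 1 was lower and 7 rose, with a median difference of 0.68. Sp5, a transcription factor induced by Wnt that is not on the list, had 43.0 and 36.7 CPM at W8 and W11, against 0.145 and 0.0683 CPM at W0 and W2, a 253-fold ratio (69.6 to 2091) whose width reflects 2 reads at W0 and 1 read at W2. Prox1, a homeobox factor of the lymphatic endothelium that also marks colonic tumour cells, had 156 and 104 CPM in the late libraries and 3.19 and 2.87 CPM in the early ones. Of 12 endothelial genes tested, Prox1 was the 1 that rose, and the median difference of that list was -0.13. Lgr5, the receptor that marks crypt base stem cells, had 65.1 and 33.0 CPM against 5.66 and 9.97 CPM. Smoc2, a matrix protein of the same cells, had 263 and 176 CPM against 62.3 and 64.3 CPM. Tnfrsf19, a Wnt-induced receptor, had 49.2 and 41.1 CPM against 3.92 and 4.99 CPM. Tead2, a partner of YAP, had 88.9 and 118 CPM in the late libraries and 11.3 CPM in both early ones. The other 9 tested overlapped, among them Myc, Ccnd1, Ascl2, Ephb2 and Ephb3. Sox9 had 65.0 and 36.3 CPM at W8 and W11, against 62.3 and 86.1 CPM at W0 and W2, and Cd44 had 400 and 385 CPM against 396 and 462 CPM.

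Ligands and receptors of the pathway were looked at by symbol after the values were seen. Of 12 tested Wnt ligands, 7 were higher, 3 were lower and 4 rose. Wnt6 had 53.3 and 70.8 CPM at W8 and W11, against 2.1 and 1.5 CPM at W0 and W2, and Wnt10a had 30.8 and 44.5 CPM, against 0 and 0.546 CPM. Among 9 frizzled receptors, 3 were higher, 4 were lower and Fzd10 alone rose, with 9.26 and 8.23 CPM against 0.363 and 0.205 CPM.

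The promoters of Sp5 and Mmp7 are shown because these were the genes looked up that hold the core TCF/LEF motif CTTTGAT in the RefSeq promoter window (GRCm38.p6, from 250 bases before to 50 bases after the start site). The window of Sp5 is chr2:70474673-70474972 and that of Mmp7 is chr9:7691840-7692139, both on the plus strand. Capitals mark the motif, which lies 104 bases before the start site in Sp5 and 4 bases after it, on the other strand, in Mmp7.
Sp5: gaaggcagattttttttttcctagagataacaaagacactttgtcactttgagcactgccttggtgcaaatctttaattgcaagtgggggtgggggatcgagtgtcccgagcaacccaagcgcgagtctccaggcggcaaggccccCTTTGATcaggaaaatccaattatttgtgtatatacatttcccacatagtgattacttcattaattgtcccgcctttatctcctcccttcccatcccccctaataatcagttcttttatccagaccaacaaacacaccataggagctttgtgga
Mmp7: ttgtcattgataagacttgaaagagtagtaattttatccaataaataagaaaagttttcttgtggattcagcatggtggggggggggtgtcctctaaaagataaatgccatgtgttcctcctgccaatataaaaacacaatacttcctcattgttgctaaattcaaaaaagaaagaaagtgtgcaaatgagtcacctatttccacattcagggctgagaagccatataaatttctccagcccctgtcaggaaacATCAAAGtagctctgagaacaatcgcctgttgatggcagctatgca
The windows of Wif1, Nkd1, Axin2, Prox1, Dkk2, Tnfrsf19, Lef1 and Rnf32 were searched as well and did not hold these letters on either strand. For the 374 rises with a promoter in the table, 27 windows (7.22%) held the motif, against 2 of 138 (1.45%) for the falls and 269 of 10725 (2.51%) for all genes tested. A match is a description of the letters and not a binding site.

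Genes of the fetal and regenerating gut epithelium were mostly higher. Of 14 tested, 11 were higher, 1 was lower and 5 rose, with a median difference of 1.03. Krt7, a simple-epithelium keratin, had 827 and 811 CPM at W8 and W11, against 281 and 285 CPM at W0 and W2. H19, an imprinted long non-coding RNA of fetal tissue, had 178 and 22.1 CPM in the late libraries, against 0 and 0.0683 CPM in the early ones. Its late values were far from each other, and at W5 it had 87.9 CPM, above W11. Spp1, the secreted phosphoprotein osteopontin, had 81.4 and 40.1 CPM against 1.02 and 0.820 CPM.

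Of 13 tested matrix metalloproteinases and inhibitors, 9 were higher, 0 were lower and 7 rose, with a median difference of 1.94. All 7 were proteases. The inhibitor Timp2 overlapped, with 187 and 114 CPM at W8 and W11, against 165 and 114 CPM at W0 and W2, and Timp1 and Timp3 are listed at 0 in all libraries. Beside Mmp7, the stromelysin Mmp10 had 141 and 83.3 CPM at W8 and W11, against 1.09 and 0.615 CPM at W0 and W2. The collagenase Mmp13 had 110 and 27.3 CPM against 2.98 and 2.05 CPM. Macrophage elastase, Mmp12, had 33.2 and 22.6 CPM against 0.726 and 1.57 CPM. These proteases were lower at W11 than at W8, as were 9945 of all 14720 genes tested. For Mmp9, a gelatinase, the late values were 61.5 and 15.6 CPM and the early ones 1.74 and 1.98 CPM, and W5 lay at 27.1 CPM, above W11.

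Keratins and other genes of stratified epithelium, little used by the normal colon surface, were mostly higher. Of 9 tested on the list, 8 were higher, 1 was lower and 7 rose, with a median difference of 2.10. Krt14, a basal keratin of the skin, had 41.5 and 43.4 CPM at W8 and W11, against 2.83 and 3.89 CPM at W0 and W2. Krt13 had 13.2 and 13 CPM against 1.16 and 0.751 CPM, and Krt17 had 36.6 and 33.8 CPM against 5.37 and 6.28 CPM. Ly6d, a surface protein of stratified epithelia, had 76.9 and 114 CPM against 14.2 and 19.9 CPM. Krt15 and Dsg3, on the same list, rose too. Not all markers of basal squamous cells followed Krt14, and Krt5 and Trp63 were near 0 in these libraries. Krt5 had 0.224 and 0.134 CPM at W8 and W11, against 0.0726 and 0.0683 CPM at W0 and W2. Trp63 had 0 and 0.134 CPM against 0 and 0.0683 CPM. Claudins, which seal the space between cells, divided instead. Of 16 tested claudin and tight junction genes, 2 were higher and both rose, and 5 were lower. Cldn4 had 291 and 258 CPM at W8 and W11, against 13.2 and 10.8 CPM at W0 and W2. Cldn6, a claudin of the embryo, had 5.90 and 7.76 CPM in the late libraries and no reads in the early ones, at least 27.1-fold higher.

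Of 18 tested antimicrobial and acute-phase genes, 12 were higher, 4 were lower and 9 rose (median difference 2.09). Defa24, a Paneth cell defensin, had 614 and 142 CPM at W8 and W11, against 0 and 0.0683 CPM at W0 and W2. With 1 read at W2, its ratio is only bounded loosely, between 372 and 81950. Saa3, an acute-phase protein, had 307 and 458 CPM against 2.03 and 2.46 CPM (125-fold, 90.2 to 179). Lyz1, the lysozyme of Paneth cells, had 1636 and 555 CPM against 55.8 and 29.0 CPM. The lectins Reg3b and Reg3g had 420 and 256 CPM at W8 and 89.8 and 58.6 CPM at W11, and neither passed 2.32 CPM in an early library. The acute-phase gene Saa1 was lower, with 515 and 421 CPM at W8 and W11, against 946 and 746 CPM at W0 and W2. Lcn2, which withholds iron from bacteria, had 361 and 202 CPM against 6.46 and 9.02 CPM. Of the genes that rose here, Defa24, Lyz1, Reg3b, Reg3g, Lcn2 and Itln1 were lower at W11 than at W8, and Saa3, Slpi and Wfdc18 were not. Over all 14720 genes tested, 9945 were lower at W11 than at W8. Defa24, Reg3b and Reg3g have close paralogs, so reads among them can be shared.

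Neutrophil genes, cytokines and chemokines were higher as well. Of 8 neutrophil genes tested, 7 were higher, 1 was lower (Ly6g) and 5 rose, with a median difference of 2.64. S100a9, which with S100a8 forms the alarmin calprotectin, had 102 and 111 CPM at W8 and W11, against 0.435 and 0.342 CPM at W0 and W2. S100a8 had 68.5 and 65.8 CPM against 0.581 and 0 CPM. Among 11 cytokines, 8 were higher, 0 were lower and 5 rose. Il1b, made by activated myeloid cells, had 48.7 and 35.7 CPM against 6.97 and 5.40 CPM, and Il23a, a subunit of interleukin-23, had 7.24 and 9.30 CPM against 0.0726 and 0.342 CPM. Chemokines gave 13 higher, 3 lower and 6 rises among 21 tested. Cxcl5, which recruits neutrophils, had 149 and 100 CPM at W8 and W11, against 1.81 and 1.64 CPM at W0 and W2. Cxcl2, another neutrophil attractant, had 21.2 and 30.0 CPM against 2.25 and 3.55 CPM. The nitric oxide synthase Nos2 was higher without passing 2-fold, with 108 and 18.6 CPM against 7.33 and 11.9 CPM.

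The promoter of Cxcl2 (chr5:90903649-90903948, plus strand) is shown because it held 2 copies of the NF-kB motif (GGG, any 2 bases, TTTCC, on either strand), 97 and 78 bases before the start site and marked in capitals. NF-kB is the factor through which many inflammatory signals act on chemokine genes.
Cxcl2: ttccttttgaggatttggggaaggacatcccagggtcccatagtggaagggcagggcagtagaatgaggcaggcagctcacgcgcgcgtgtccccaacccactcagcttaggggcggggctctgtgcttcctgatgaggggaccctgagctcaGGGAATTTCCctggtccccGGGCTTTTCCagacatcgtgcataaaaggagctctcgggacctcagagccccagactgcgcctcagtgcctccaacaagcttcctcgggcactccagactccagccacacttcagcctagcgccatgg
The windows of Saa3 and Lcn2 did not hold it. The motif was in 12 of 374 windows (3.21%) of the rises, against 2 of 138 (1.45%) of the falls and 183 of 10725 (1.71%) of all genes tested.

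Mast cell genes were higher in 8 of 10 tested, lower in 0, and 6 rose (median difference 2.41). Mcpt1, a protease of mucosal mast cells, had 86.8 and 55.9 CPM at W8 and W11, against 2.54 and 1.78 CPM at W0 and W2. Its relative Mcpt2 had 86.9 and 56.3 CPM against 2.83 and 1.57 CPM, and these paralogs can share reads. Macrophage genes moved more modestly, with 9 of 15 higher, 0 lower and 0 past 2-fold. The complement gene C1qa reached 204 and 250 CPM against 107 and 84.8 CPM. The other 6 overlapped, among them 2 defining markers. Csf1r had 123 and 60.4 CPM at W8 and W11, against 97.7 and 38.5 CPM at W0 and W2. Adgre1 had 31.5 and 23.4 CPM against 36.2 and 14.2 CPM. Plasma cell genes gave 6 of 9 higher and 0 past 2-fold. The interferon response went without such a shift, with 1 of 15 higher, 4 lower and 0 past 2-fold. Cell cycle genes did so too: of 25 tested, 2 were higher, 0 were lower and 0 rose, and Mki67 had 190 and 112 CPM at W8 and W11, against 183 and 318 CPM at W0 and W2.

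The CPM of the same lists was also summed. Neutrophil genes summed to 366 CPM at W8 and 293 CPM at W11, against 118 CPM at W0 and 145 CPM at W2. Most of the early sums was Ly6g, which was lower, with 77.9 and 79.1 CPM at W8 and W11, against 110 and 139 CPM. Mast cell genes summed to 255 and 175 CPM against 66.0 and 37.5 CPM, and macrophage genes to 2084 and 2074 CPM against 1250 and 869 CPM. Of the macrophage sums, Lyz2 alone gave 923 and 957 CPM at W8 and W11, against 480 and 342 CPM at W0 and W2. In bulk tissue, more or fewer cells of a type and more or less RNA per cell cannot be told apart, and the part of these sums in the other rises was not tested.

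**Figure D3:**
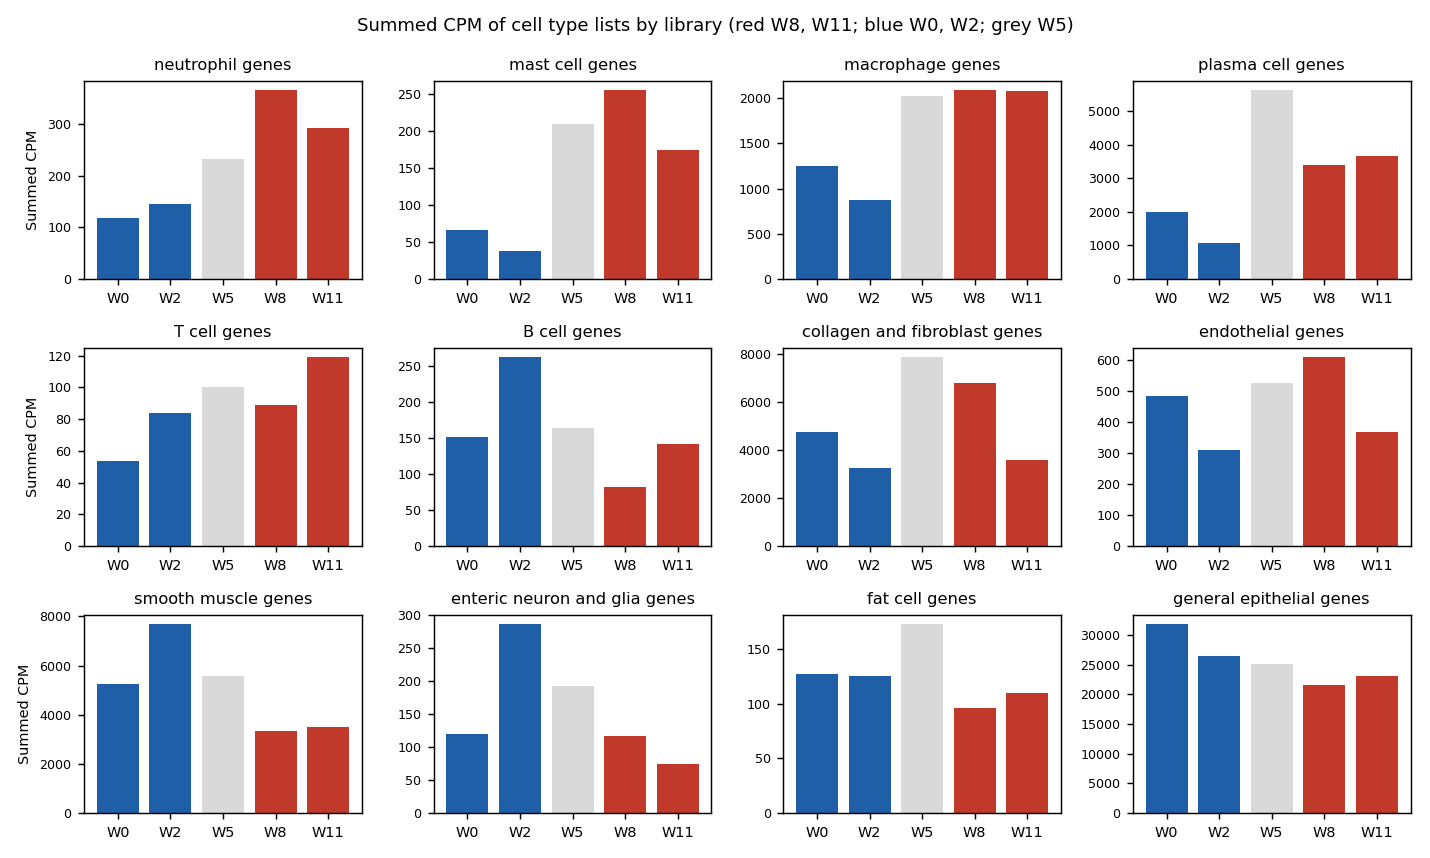
Summed CPM of 12 cell type gene lists in each library, with W8 and W11 in red, W0 and W2 in blue and W5 in grey, and each vertical axis starting at 0. Neutrophil, mast cell, macrophage, plasma cell and T cell sums are above both early libraries in both late ones. Of 11 tested T cell genes, however, 2 were higher, 1 was lower and 8 overlapped. The 1 that rose was Zap70, with 24.9 and 36.3 CPM at W8 and W11, against 3.77 and 5.74 CPM at W0 and W2. Smooth muscle, B cell, neuron and glia, fat and general epithelial sums are below both early libraries. The neuron and glia sum is only just so, with 117 and 73.7 CPM at W8 and W11, against 119 and 286 CPM at W0 and W2.

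Zinc-handling genes and a pair of pancreatic lipase-related genes were among the widest gaps, and the lists around them were chosen after their values were seen. Slc30a2, a transporter that loads zinc into secretory vesicles, had 136 and 143 CPM at W8 and W11, against 0.218 and 0 CPM at W0 and W2 (625-fold, 214 to 3035). Mt4, a metallothionein of stratified epithelium, had 86.6 and 327 CPM against 0 and 0.205 CPM. Mt3, a metallothionein best known from brain, had 68.9 and 193 CPM against 0.871 and 2.05 CPM. The common metallothioneins did not follow: Mt1 had 61.1 and 96.9 CPM at W8 and W11, against 65.2 and 189 CPM at W0 and W2, and Mt2 also overlapped. Of 12 tested metallothioneins and zinc transporters, 4 were higher and all 4 rose, 2 were lower and 1 fell. Pnliprp1, a lipase-related protein best known from pancreas, had 308 and 532 CPM against 2.69 and 2.87 CPM, and Pnliprp2 had 227 and 412 CPM against 2.25 and 1.78 CPM. Markers of the exocrine pancreas did not accompany them: Cpa1, Cela2a and Amy2a5 are listed at 0 in all libraries.

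The promoters of Mt4 (chr8:94136954-94137253), Mt3 (chr8:94152357-94152656) and Slc30a2 (chr4:134343216-134343515), all on the plus strand, are shown because metallothionein genes are classically controlled through metal response elements. Capitals mark the letters TGCACNC or TGCGCNC on either strand, which lie 91 bases before the start site in Mt4, 27 bases after it in Mt3, and 214 and 200 bases before it in Slc30a2.
Mt4: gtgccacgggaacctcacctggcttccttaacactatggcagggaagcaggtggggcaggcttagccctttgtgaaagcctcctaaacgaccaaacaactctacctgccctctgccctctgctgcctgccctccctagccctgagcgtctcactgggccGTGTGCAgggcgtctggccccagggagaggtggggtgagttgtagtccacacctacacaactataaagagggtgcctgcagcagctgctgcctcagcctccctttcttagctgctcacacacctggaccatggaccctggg
Mt3: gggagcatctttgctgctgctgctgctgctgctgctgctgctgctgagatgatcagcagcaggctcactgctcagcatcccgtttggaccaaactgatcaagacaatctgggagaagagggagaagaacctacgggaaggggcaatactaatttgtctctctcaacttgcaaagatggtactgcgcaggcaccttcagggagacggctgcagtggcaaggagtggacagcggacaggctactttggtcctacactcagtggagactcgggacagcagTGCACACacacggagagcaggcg
Slc30a2: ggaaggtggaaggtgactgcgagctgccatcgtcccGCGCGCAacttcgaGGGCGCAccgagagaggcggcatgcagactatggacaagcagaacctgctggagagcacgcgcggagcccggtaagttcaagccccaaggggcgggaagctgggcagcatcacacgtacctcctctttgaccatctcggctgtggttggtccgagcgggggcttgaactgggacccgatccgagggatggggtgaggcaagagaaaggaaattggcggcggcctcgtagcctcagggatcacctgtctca
The window of Slc39a8 did not hold them. This short motif is common, in 120 of 374 windows (32.1%) of the rises, 43 of 138 (31.2%) of the falls and 3842 of 10725 (35.8%) of all genes tested, so its presence does not set these genes apart.

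Among the lower genes, the transport machinery of the surface colonocyte made up a large group. Of 20 tested ion and water transport genes, 0 were higher, 15 were lower and 5 fell, with a median difference of -1.09. Slc26a3, the chloride and bicarbonate exchanger, had 105 and 32.7 CPM at W8 and W11, against 533 and 652 CPM at W0 and W2. Car4, a membrane carbonic anhydrase on the absorptive colonocyte list, had 181 and 33.3 CPM against 1186 and 1028 CPM, which in the nearest pair is a ratio of early over late of 5.66 (5.43 to 5.92). Trpm6, a magnesium channel, had 17.0 and 9.23 CPM against 133 and 101 CPM. These genes were lower at W11 than at W8, as were 9945 of all 14720 genes tested. Of 19 absorptive colonocyte genes, 13 were lower and 8 fell, and 1 was higher and rose. That gene was Clca4b, with 862 and 341 CPM at W8 and W11, against 21.1 and 16.5 CPM at W0 and W2. The absorptive list summed to 3159 and 1787 CPM in the late libraries and to 6176 and 9780 CPM in the early ones. General epithelial genes were lower too, in 8 of 12, but Epcam had 2004 and 1715 CPM against 1824 and 1954 CPM and did not separate.

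Enzymes that handle drugs and other foreign compounds were lower in 16 of 18 tested, higher in 1, and fell in 9 (median difference -1.23). Cyp2c55, a colonic cytochrome P450, had 14.1 and 9.43 CPM at W8 and W11, against 110 and 85.6 CPM at W0 and W2. Sult1a1, a sulfotransferase of phenols, had 69.2 and 78.4 CPM against 307 and 382 CPM, and unlike the transporters it was no lower at W11 than at W8. Ces2a, a carboxylesterase, had 28.8 and 32.0 CPM against 119 and 101 CPM. Cyp2d12, a P450 that is not on the list, had 2.02 and 0.937 CPM against 29.3 and 19.5 CPM. Nutrient and solute transporters were lower in 9 of 15, among them the peptide transporter Slc15a1 with 9.34 and 5.15 CPM against 45.9 and 35.8 CPM. Of that list 2 fell, 2 were higher and 1 rose, the cystine transporter Slc7a11, with 15.7 and 13.7 CPM against 3.34 and 6.15 CPM. Fatty acid oxidation and ketone genes were lower in 11 of 19 and fell in 0. Slc16a3, a lactate exporter and the 1 rise among 17 glycolysis genes, had 99.6 and 64.5 CPM against 4.50 and 5.19 CPM.

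**Figure D4:**
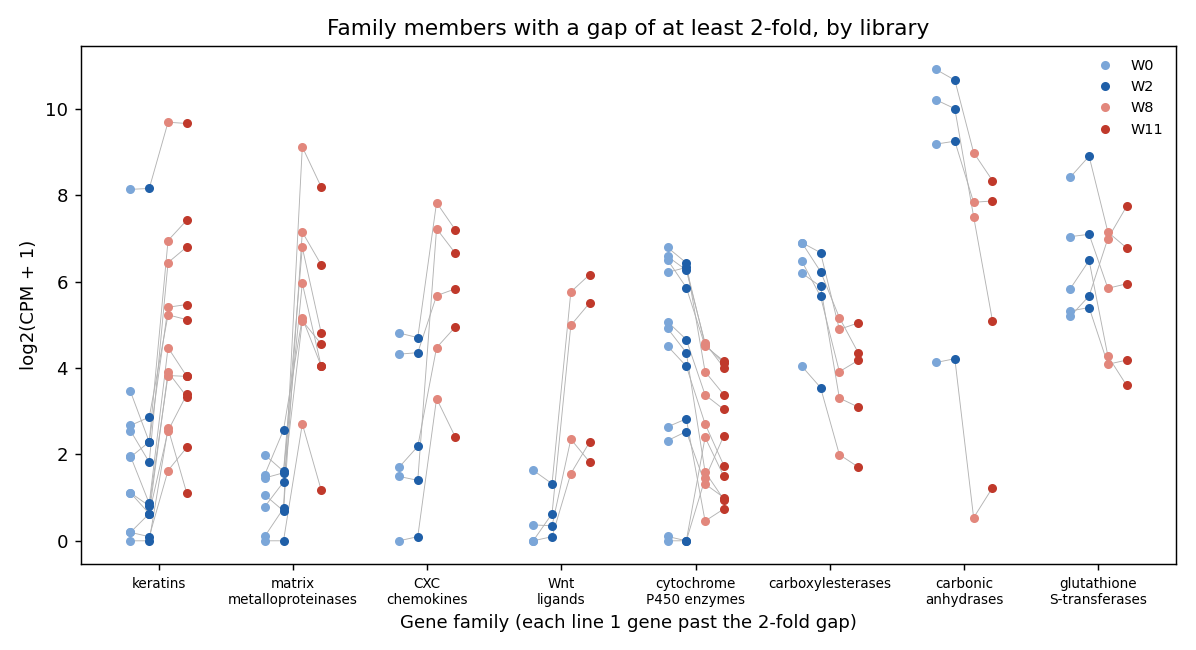
Level in log2(CPM + 1) of each member past the 2-fold gap in 8 gene families, with 1 line per gene joining W0 and W2 (blue) to W8 and W11 (red). The keratins, metalloproteinases, CXC chemokines and Wnt ligands shown all rose, and the carboxylesterases and carbonic anhydrases shown all fell, while P450 enzymes and glutathione S-transferases hold both.

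The HNF4 motif CAAAGTCCA, whose factor is known for colonocyte genes, was searched in the promoters of the falls. It was in 3 of 138 windows (2.17%), against 2 of 374 (0.535%) of the rises and 52 of 10725 (0.485%) of all genes tested. The windows of Aqp8, Slc26a3, Car4, Cyp2c55, Trpm6 and Sult1a1 did not hold it.

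Goblet cell genes divided. Of 18 tested, 6 were lower, 2 were higher, 2 fell and 1 rose. Zg16, a mucus lectin that binds bacteria and is named in the title of the study, had 630 and 291 CPM at W8 and W11, against 3818 and 2691 CPM at W0 and W2. In the nearest pair the ratio of early over late was 4.27 (4.17 to 4.37), and W5 lay between at 1319 CPM. Tff3, a trefoil peptide of mucus, had 354 and 253 CPM against 808 and 818 CPM. Spink4, a protease inhibitor of the same cells, had 1295 and 1898 CPM at W8 and W11, against 627 and 596 CPM at W0 and W2. Fcgbp and Clca1, other mucus proteins, overlapped: Clca1 had 1736 and 161 CPM at W8 and W11, against 5053 and 1195 CPM at W0 and W2. Enteroendocrine genes were lower in 8 of 10, including the glucagon gene Gcg with 26.7 and 29.5 CPM against 64.7 and 62.6 CPM. The neurotensin gene Nts was higher and rose, with 2.39 and 4.15 CPM at W8 and W11, against 0.29 and 0.342 CPM at W0 and W2.

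**Figure D5:**
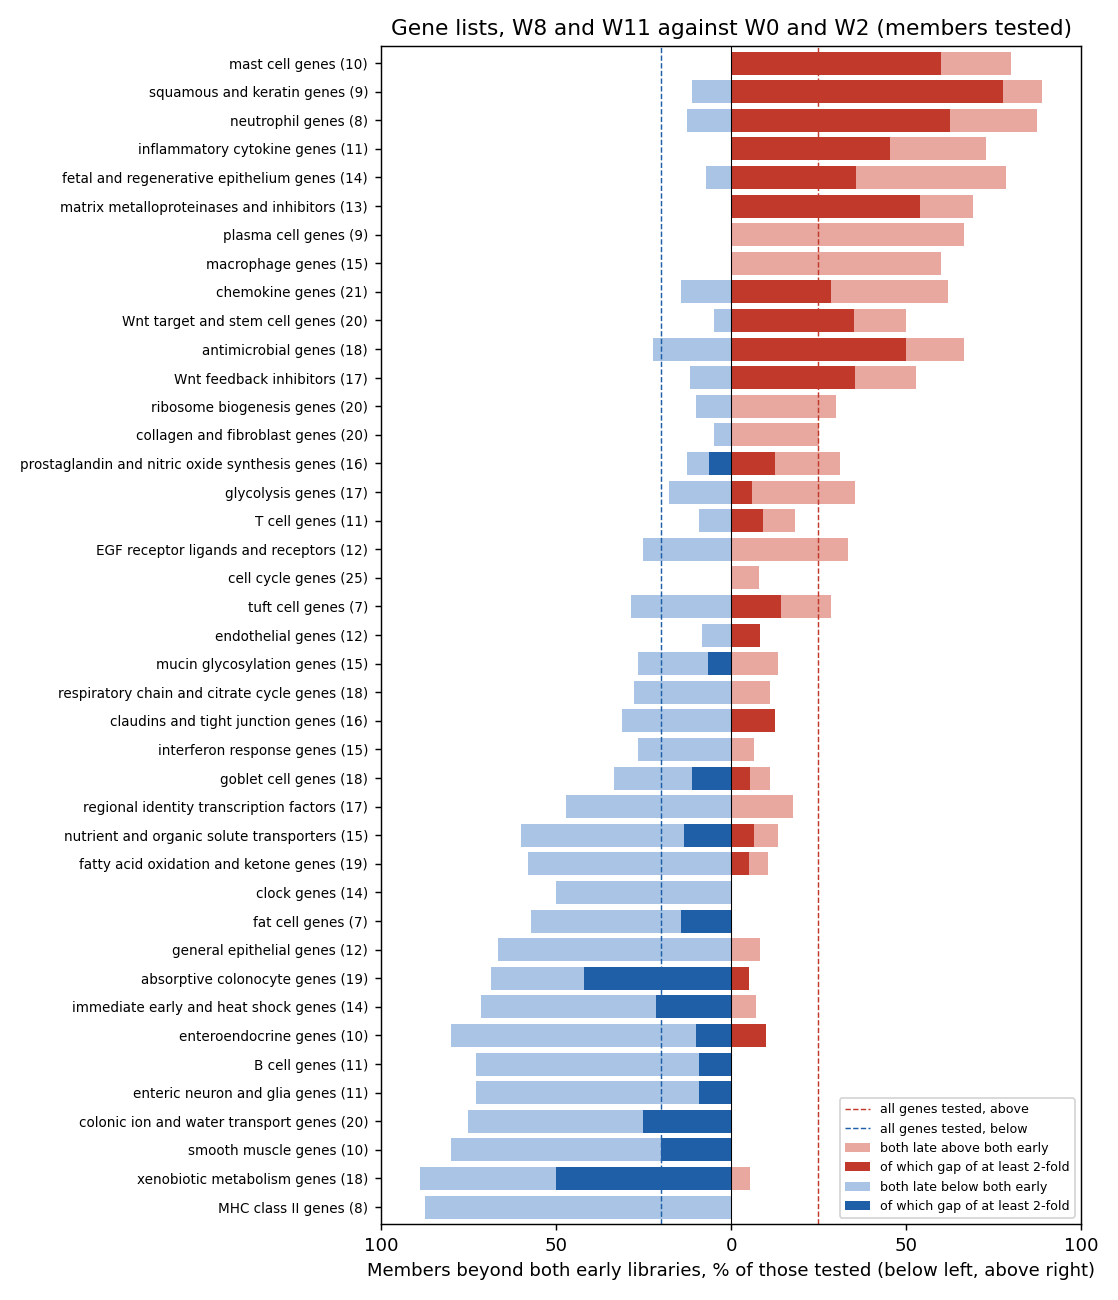
For each of the 41 gene lists, the share of tested members above both early libraries (right, red) or below both (left, blue), in %, with the part past the 2-fold gap in the darker shade. Dashed lines mark the shares over all genes tested, 24.7% higher and 20.1% lower.

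B cell genes were lower in 8 of 11 tested and higher in 0. Pax5, the factor that fixes B cell identity, had 1.87 and 2.81 CPM at W8 and W11, against 9.87 and 19 CPM at W0 and W2. MHC class II genes were lower in 7 of 8, and 0 fell past 2-fold. The B cell list summed to 81.3 and 142 CPM at W8 and W11, against 152 and 262 CPM at W0 and W2. Ms4a1, a defining B cell marker, is listed at 0 in all libraries, and a 0 in every library is not read as absence.

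Smooth muscle genes were lower in 8 of 10 and fell in 2, and neuron and glia genes were lower in 8 of 11. Myh11, the smooth muscle myosin, had 728 and 590 CPM at W8 and W11, against 1635 and 2528 CPM at W0 and W2. Snap25, a protein of synaptic vesicle release, had 2.39 and 2.14 CPM against 9.29 and 27.3 CPM. Smooth muscle genes summed to 3347 and 3489 CPM against 5262 and 7680 CPM. The widest fall of all, Car3, is a carbonic anhydrase of fat and muscle, with 0.448 and 1.34 CPM at W8 and W11, against 16.5 and 17.6 CPM at W0 and W2. The fat cell genes Adipoq (0 and 1.2 CPM against 3.56 and 2.66 CPM) and Plin1 (0 in both late libraries, 0.508 and 0.273 CPM in the early ones) were lower beside it. Of 7 tested fat cell genes, 4 were lower, Adipoq included, and Fabp4 overlapped, with 23.8 and 56.1 CPM against 32.2 and 43.2 CPM. The part of fat cells in the fall of Car3 was not tested. Of 14 tested immediate early and heat shock genes, 10 were lower and 3 fell (Egr1, Fosb and the heat shock gene Hspa1a). Egr1 had 45.0 and 57.5 CPM at W8 and W11, against 173 and 169 CPM at W0 and W2.

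The late libraries also differed from each other. At W11, 501 genes (3.4%) were at least 2-fold above W8 and 1758 (11.9%) at least 2-fold below, and the median difference of W11 minus W8 over all genes was -0.30 on the log2 scale. Of the 531 rises, 30 (5.65%) were at least 2-fold higher at W11 than at W8 and 43 (8.1%) at least 2-fold lower. Of the 205 falls, 2 (0.976%) were at least 2-fold higher and 27 (13.2%) at least 2-fold lower. The early libraries differed by at least 2-fold in 34 of the rises and 8 of the falls, and in 1125 of all genes tested. Of the rises, 39 had no reads in either early library. With W5 counted among the early libraries, 66 rises and 7 falls overlapped. Mmp13 (39.7 CPM at W5), Clca4b (648 CPM), Mcpt2 (87.7 CPM) and H19 were among those rises, and Tff3 (305 CPM) was among those falls.

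Genes just inside the 2-fold threshold were Eif4ebp1, with 67.6 and 68.4 CPM at W8 and W11, against 32.5 and 33.3 CPM at W0 and W2, and on the falling side Cyp4b1, with 1.49 and 1.00 CPM against 3.99 and 4.78 CPM. Just outside were Plaur, with 45.2 and 28.6 CPM against 13.8 and 4.44 CPM, and Cyp2d10, with 16.9 and 18.5 CPM against 47.3 and 38.0 CPM. Of 221 named genes, 56 share exon sequence with another annotated gene, 47 of them on the opposite strand. The strand setting of the counting is not given in the sources used here, so Avil, Tead2, Sult1a1, Ckmt1 and Duoxa2, among others, can hold reads of an overlapping gene.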

How the data were processed

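Per the labels' protocols, TRIzol RNA of colon went into TruSeq libraries. Per the submitters' processing notes, featureCounts, HISAT2 2.2.1 and FastQC were used, and GRCm38, GRCm39 and mm39 are listed without a role. The strand setting was not given in the sources used here. In the deposited table there were 2 columns per library. Those headed TPM held whole-number read counts as deposited, and those headed count held RPKM values as deposited, so the headers appear to be swapped. The ratio of the kinds agreed within 1% across libraries in 2620 of 2620 genes over 5 RPKM.

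Counts were divided by the library total to give CPM. Genes averaging 1 CPM or more were kept (14720 of 52382). Gaps used log2(CPM + 1). A symbol on several identifiers (59 symbols) went to its most abundant identifier, and 118 identifiers carried none. Where both early libraries were at 0, the least fold was the lowest late CPM over a floor of 3 counts, 0.218 CPM at W0. A 0 was otherwise kept as it was. Ratios have exact conditional (Clopper-Pearson) 95% intervals. No test across conditions was run, since each time point has 1 library.

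The members and the 41 gene lists (662 symbols, 563 tested) were chosen with earlier results of these data known, and the gene families, the zinc and pancreas lists and the 4 promoter motifs after values were seen. Promoters came from RefSeq (GRCm38.p6), with the first listed window per gene; 23 of 28 genes looked up had an entry. Named genes were the 15 widest gaps per direction without clone-named loci, pseudogenes, antigen receptor segments, and mitochondrial, Y-linked or ribosomal genes; up to 4 members per list in its more frequent direction and 2 in the other; the 5 of highest mean per direction; the 3 just inside and outside the threshold; and Zg16. Others named were chosen after their values were seen. Alternatives were 2 other scalings, the deposited RPKM values, 3 filters, 2 pseudocounts, W5 with either side, and leaving out each library. The calling step was tested on simulated counts. Software was matplotlib 3.10.9, scipy 1.17.1, pandas 2.3.3 and numpy 2.4.6, under Python 3.11.15. A result on a withheld gene is not reported here.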

Additional observations from a re-analysis of the deposited data

How the results depend on the processing

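No named gene changed direction under any alternative run, but only the other scalings and the RPKM values could have reversed one. Filters and pseudocounts leave the order of the libraries as it is, and adding W5 to a side can only narrow or close a gap. A gap that closed to an overlap was not counted as a change of direction. Of 101 named genes past the 2-fold gap, 33 stayed past it in all 10 settings other than leaving out a library, and 68 were lost in at least 1. The deposited RPKM values gave 263 rises and 71 falls, and a pseudocount of 5 gave 322 rises and 102 falls. A pseudocount of 0.1 gave 309 falls. With W5 added to the late libraries there were 1402 lower genes, 265 rises, 26 falls and 96 lower list members. With W5 added to the early libraries there were 2289 higher genes, 233 rises, 83 falls and 99 higher list members. Leaving out 1 library at a time can only widen a gap: it gave 5070 to 6582 higher genes, 3719 to 6924 lower genes, 727 to 951 rises, 290 to 1304 falls, 181 to 233 higher list members and 211 to 290 lower ones. Without W8, W0 or W2 the falls were 1304, 572 and 452, over 1.5 times the 205 with all 4 libraries, and without W8, W11 or W0 the rises were 951, 860 and 847, over 1.5 times the 531. Without W8, 42.3% of the differing genes were higher, and without W11 63.9%, against 55.2% with both. Median-of-ratios scaling kept 499 of the 531 rises and 187 of the 205 falls. No paired analysis was possible because each time point has 1 library. For genes with few reads in the early libraries, depth limits the size of the ratio.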

Other observations

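Gene families taken by symbol, chosen after their values were seen, gave the following counts. Over all 14720 genes tested, 24.7% were higher, 20.1% were lower, 3.61% rose and 1.39% fell. Of 18 tested keratins, 14 were higher, 3 were lower and 11 rose. Krt36, a hair and tongue keratin, had 86.0 and 111 CPM at W8 and W11, against 4.86 and 2.53 CPM at W0 and W2, and Krt23 had 123 and 171 CPM against 10 and 3.89 CPM. Cytochrome P450 enzymes were lower in 21 of 37 tested, with 9 falls and 2 rises, and carboxylesterases were lower in 9 of 12, with 5 falls and 0 rises. Of 12 carbonic anhydrases, 8 were lower and 4 fell. Potassium channels were lower in 19 of 40 and higher in 7. Of 72 cytosolic ribosomal protein genes, 14 were higher, 0 were lower and 0 rose, with a median difference of 0.61 on the log2 scale. In the potassium channels and the ribosomal protein genes, the share higher was under that of all genes tested.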
